A study of Mus musculus with 32 samples.

Results

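The transcript models described here are 3 of the 51884 listed in each of 32 libraries from mouse cortical neurons: uc008thw.1 (3354 nt), uc009plj.1 (6364 nt) and uc008ezn.1 (10480 nt). They were selected on their fall after KCl depolarization. uc008thw.1 and uc009plj.1 had the smallest p-values among the transcripts lowered in the input RNA of both constructs together, and uc008ezn.1 was among the 2 with the smallest p-values in the pulldowns of each construct. The fall itself is therefore described below without a test. The libraries name transcripts by UCSC identifiers, of which 0 matched the gene tables used here, so the transcripts were left without gene names, genomic positions, sequences or known functions, and the cultures could not be checked for markers of neurons or glia.

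Depolarization by high extracellular potassium opens voltage-gated calcium channels, and the calcium that enters starts signalling to the nucleus and to synapses. Transcript levels then move in both directions: immediate early genes are induced, while other transcripts are transcribed less or decay. PSD95 is a scaffold protein of the postsynaptic density, the protein-rich face of an excitatory synapse on a dendritic spine. TurboID is a biotin ligase that tags proteins close to it, so that RNA crosslinked to tagged proteins can be recovered on streptavidin beads.

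The cultures were primary cortical neurons from mouse embryos, transduced with a doxycycline-inducible lentivirus that carried either PSD95-TurboID, a fusion flanked by PSD95 untranslated regions, or Pan-TurboID, which has no localization signal. All cultures received cycloheximide, a translation inhibitor, for 2 min and then biotin for 30 min, and were crosslinked with UV light. From each lysate, 15% was kept as input and the rest went to the streptavidin pulldown. The 2 states, 2 constructs and 2 fractions gave 8 groups of 4 libraries. Resting neurons received cycloheximide and biotin. For depolarized neurons, silencing with tetrodotoxin and DL-AP5 for 2 h preceded 55 mM KCl for 1 h and a 30 min rest, and the silencers were present again during labelling. Whether resting cultures were silenced is not given in the labels, so silencing and depolarization cannot be told apart. Both constructs were expressed from an inducible promoter rather than at the native level of PSD95, and every group carried a construct.

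Libraries held 2950000 to 19300000 estimated reads. One transcript, uc009sgd.1 (3881 nt), took 2.08% to 84.8% of them and over 50% in 6 libraries, which left 613000 to 17600000 reads outside the 3 most abundant transcripts. Levels are therefore given as CPM, the reads of a transcript relative to the library total, scaled by trimmed mean of M values (TMM), which sets libraries on the bulk of their transcripts. Groups and replicate numbers were taken from the titles. The free-text descriptions of 8 libraries, all of replicate 2, name the opposite state, and values under those states are given where they matter.

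All 3 transcripts passed the filter on low counts in the inputs, in the pulldowns and in all libraries together. Their lengths stood at the 62.0, 92.2 and 98.8 percentiles of the 34696 transcripts tested in all libraries, whose median was 2806 nt. Compared per length, as TPM, uc008thw.1 had the highest mean level over the 32 libraries at 60.7 TPM, followed by uc009plj.1 at 28.8 TPM and uc008ezn.1 at 5.59 TPM. TPM is not corrected for the dominant transcript, but ratios within a library are free of it. In the resting libraries the TPM of uc008thw.1 was a median of 2.12 times that of uc009plj.1, with a range of 1.34 to 2.97 over 16 libraries, and 9.50 times that of uc008ezn.1, with a range of 4.53 to 19.2. The order of the levels per length was thus the same in every resting library.

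The read support was thinnest in the depolarized Pan input of replicate 4, with 130 estimated reads of uc008thw.1, 112 of uc009plj.1 and 28 of uc008ezn.1. For uc008ezn.1 those 28 reads gave 29.0 CPM with a 95% exact Poisson interval of 19.2 to 41.9 CPM, which covers counting error only. The next lowest count of uc008ezn.1 in any library was 74. Estimated reads were not whole numbers, to within 0.001 of a read, in 32, 25 and 30 of the 32 libraries for the 3 transcripts, so part of the reads was shared with other transcript models, and a level can hold reads of another isoform.

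**Figure D1:**
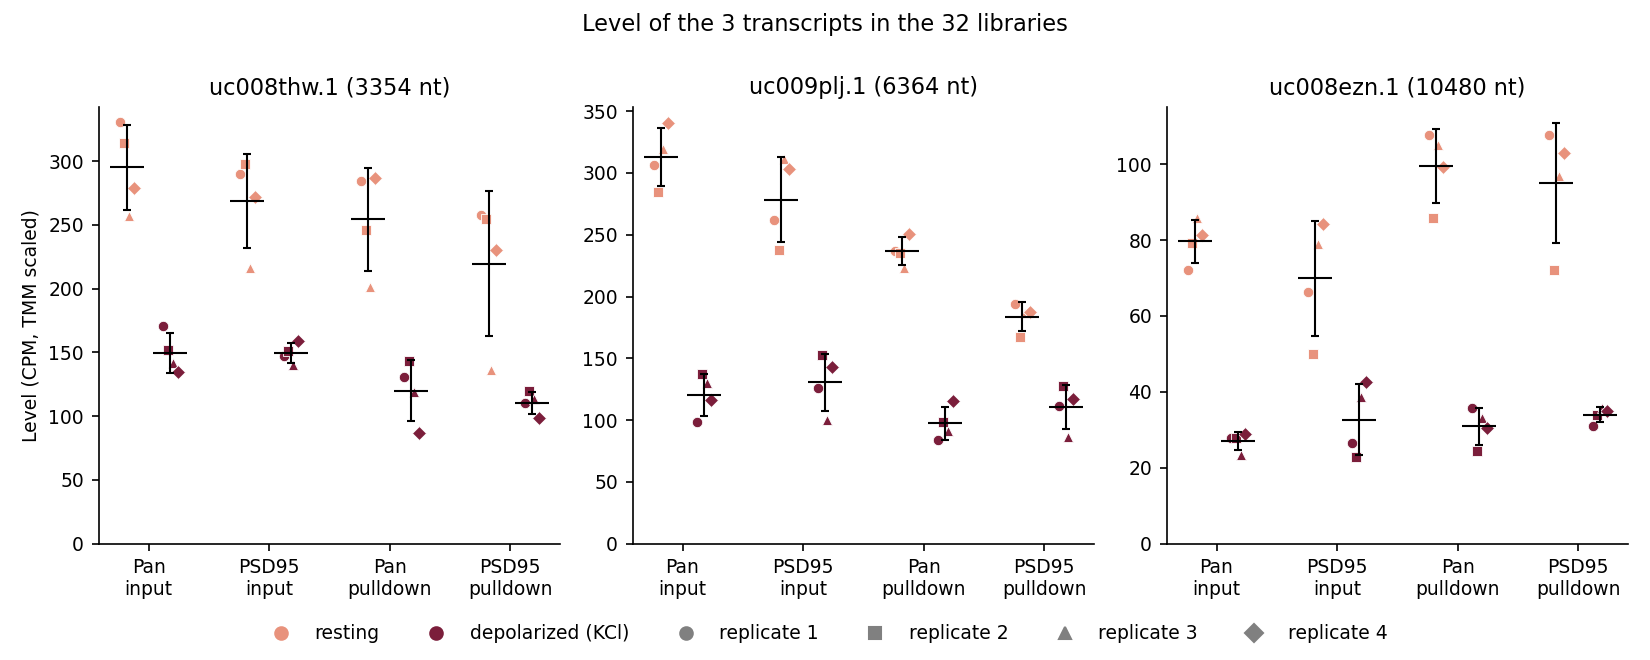
Level of uc008thw.1, uc009plj.1 and uc008ezn.1 (vertical axis, TMM-scaled CPM, starting at 0) by construct and fraction, with resting libraries in salmon and depolarized libraries in burgundy; each point is 1 library, its shape gives the replicate number, and black bars are the mean and SD of 4 libraries. In each of the 12 settings every depolarized library lies below every resting one.

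uc008thw.1 stood at 331, 314, 257 and 279 CPM in the resting Pan inputs of replicates 1 to 4, and at 171, 152, 141 and 135 CPM in the depolarized ones. In the PSD95 inputs it went from 290, 298, 216 and 272 CPM at rest to 147, 151, 140 and 159 CPM after KCl. Every depolarized input was below every resting input, and the depolarized values lay close together. The Pan pulldowns held 284, 246, 201 and 287 CPM at rest and 131, 143, 119 and 87.1 CPM after KCl. The PSD95 pulldowns held 258, 255, 136 and 230 CPM at rest and 110, 120, 113 and 98.4 CPM after KCl. Replicate 3 was the lowest of the resting libraries in each of these settings, and in the PSD95 pulldown it came within 16.4 CPM of the highest depolarized library. The resting PSD95 pulldown of replicate 3 held 170 estimated reads of uc008thw.1, and uc009sgd.1 took 73.9% of its reads. The log2 ratio of depolarized to resting within a replicate accordingly ran from −1.05 to −0.86 in the Pan inputs but from −1.23 to −0.26 in the PSD95 pulldowns, where replicate 3 gave the smallest fall. Over the 16 pairs of libraries the mean log2 ratio was −0.97 ± 0.32 (SD), with 16 of 16 below 0, which left 51.2% of the resting level. Here and for the other transcripts, the 16 pairs came from 8 lysates per state in 4 replicates and are not independent comparisons.

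uc009plj.1 showed the same separation of states. Its Pan inputs held 307, 285, 320 and 341 CPM at rest and 98.5, 137, 130 and 116 CPM after KCl. Its PSD95 inputs held 262, 238, 311 and 303 CPM at rest and 126, 153, 100 and 143 CPM after KCl. In both, every resting value was above every depolarized one. In the Pan pulldowns the values were 237, 235, 223 and 251 CPM at rest and 84.2, 98.1, 90.7 and 116 CPM after KCl. In the PSD95 pulldowns they were 194, 167, 186 and 187 CPM at rest and 111, 127, 85.9 and 117 CPM after KCl. The resting PSD95 pulldowns thus started lower than the resting Pan pulldowns, and their fall was the smallest for this transcript, at a mean log2 ratio of −0.75 ± 0.30 (SD, n = 4) against −1.29 ± 0.15 in the Pan pulldowns. Over all 16 pairs the mean was −1.13 ± 0.37 (SD), with 16 of 16 below 0.

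uc008ezn.1, the longest of the 3 and the least abundant per length, had the largest mean fall. In the Pan inputs it went from 72.1, 79.2, 85.9 and 81.4 CPM at rest to 27.8, 27.9, 23.4 and 29.0 CPM after KCl. In the PSD95 inputs it went from 66.4, 50.0, 79.0 and 84.1 CPM to 26.6, 22.9, 38.7 and 42.6 CPM. The inputs of PSD95 varied more between replicates than those of Pan in both states. The Pan pulldowns held 108, 85.9, 105 and 99.3 CPM at rest and 35.7, 24.4, 33.0 and 30.5 CPM after KCl. The PSD95 pulldowns held 108, 72.2, 97.0 and 103 CPM at rest and 31.1, 34.0, 35.6 and 35.1 CPM after KCl. All resting pulldowns were at least at 72.2 CPM and all depolarized ones at most at 35.7 CPM. Over the 16 pairs the mean log2 ratio was −1.46 ± 0.29 (SD), with 16 of 16 below 0, which left 36.3% of the resting level.

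**Figure D2:**
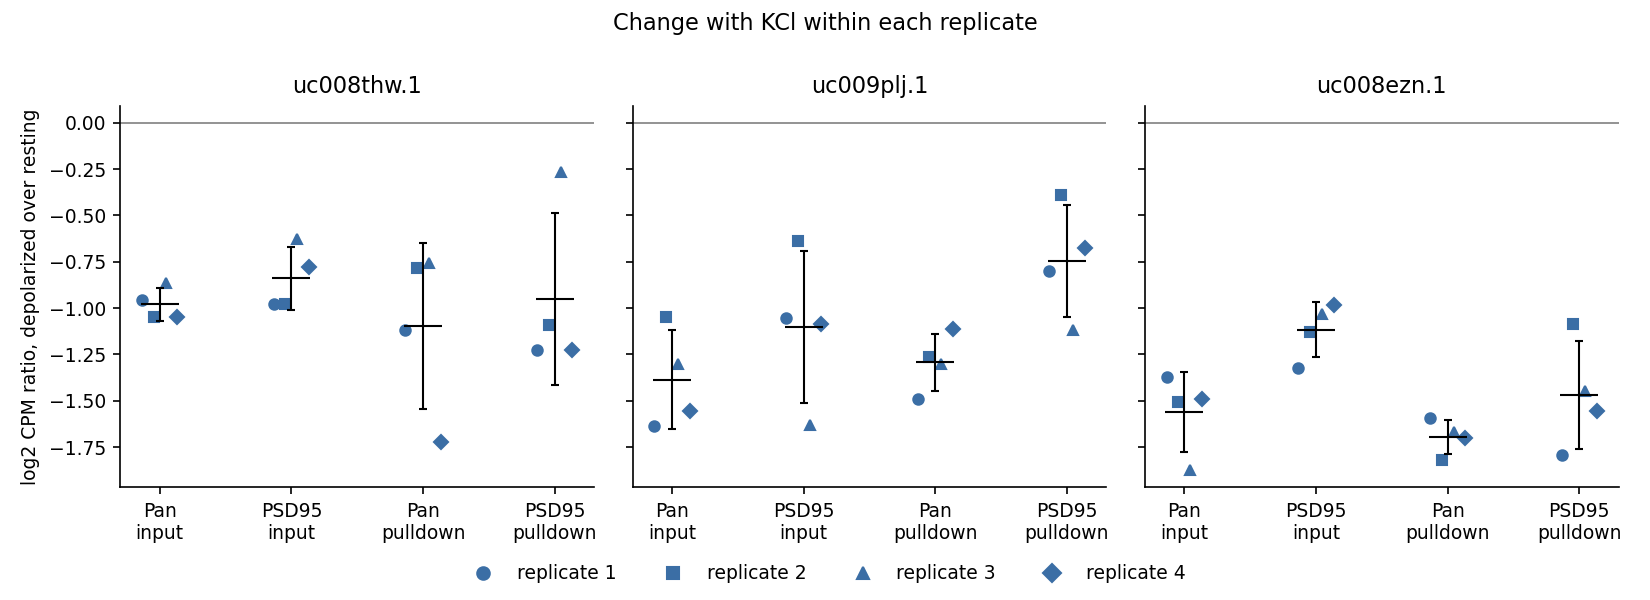
Change with KCl within each replicate (vertical axis, log2 ratio of depolarized to resting TMM-scaled CPM) for the 3 transcripts, by construct and fraction; points are replicates and black bars are the mean and SD of 4. All 48 ratios lie below 0, and the 2 widest spreads are those of uc008thw.1 in the pulldowns.

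The ranges of the resting and depolarized libraries overlapped in 0 of 12 settings of transcript, construct and fraction. Among all transcripts tested, every depolarized library was below every resting one in 3.87% of transcripts in the Pan inputs, 2.25% in the PSD95 inputs, 4.39% in the Pan pulldowns and 2.7% in the PSD95 pulldowns. Nothing is read from this, since these contrasts chose the transcripts. In the fit across all transcripts (limma, with replicate number as a block), uc008thw.1 changed by −0.93 ± 0.07 (SE, log2) in the Pan inputs, −0.86 ± 0.06 in the PSD95 inputs, −1.24 ± 0.13 in the Pan pulldowns and −1.11 ± 0.13 in the PSD95 pulldowns. The fitted change of uc009plj.1 was −1.42 ± 0.10, −1.05 ± 0.09, −1.28 ± 0.08 and −0.71 ± 0.08 in the same order. That of uc008ezn.1 was −1.52 ± 0.17, −1.13 ± 0.14, −1.66 ± 0.11 and −1.59 ± 0.10. The median change of all transcripts in these fits lay between −0.07 and 0.08. The highest quality weight in the input fit, 2.24, went to the depolarized Pan input of replicate 4, thinnest in read support. The inputs of replicate 2 had weights of 0.35 to 0.62. Without quality weights all 12 changes moved by less than the SD between replicates.

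In the inputs some transcripts just outside the selection fell further than the members, while in the pulldowns the next ones by p fell by less than uc008ezn.1. In the inputs of both constructs together, the next place by p after uc008thw.1 and uc009plj.1 went to a transcript that changed by −0.70 ± 0.05 (SE, log2). The 2 places after it went to uc008xgy.2 and uc007olc.2, which changed by −1.63 ± 0.12 and −1.61 ± 0.12, further than either member. These 2 transcripts return below as the most like uc008thw.1 and uc009plj.1. In the PSD95 pulldowns the transcripts on either side of uc008ezn.1 changed by −1.51 ± 0.10 and −1.46 ± 0.09, beside its own −1.59. In the Pan pulldowns uc008ezn.1, at −1.66, was followed by uc009plj.1 and then by transcripts that changed by −1.01 ± 0.07, −1.31 ± 0.09 and −1.35 ± 0.10. The order is by the change relative to its error. In these bulk libraries, fewer cells of a type and less RNA per cell cannot be told apart.

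The size of the fall depended on the scale, and its direction did not in any alternative tried. With CPM of all reads, which lets the dominant transcript in, the median transcript itself moved by −0.92 (log2) in the Pan inputs, −0.49 in the PSD95 inputs, 0.07 in the Pan pulldowns and 0.37 in the PSD95 pulldowns. On that scale uc008thw.1 changed by −1.89 in the Pan inputs and −0.62 in the PSD95 pulldowns. Without the 6 libraries dominated by uc009sgd.1 the fitted changes of all 3 transcripts moved by less than the SD between replicates. If the states in the free-text descriptions were taken, replicate 2 would run against the other replicates for all 3 transcripts, and the Pan input changes would be −0.62, −1.09 and −1.13 for uc008thw.1, uc009plj.1 and uc008ezn.1.

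State accounted for 75.3% of the variance of log2 CPM of uc008thw.1 over the 32 libraries, 80.2% for uc009plj.1 and 87.8% for uc008ezn.1, beside a median of 2.86% for all transcripts tested. This follows from the choice. The choice was by small p, which also favours little spread between libraries, and a large share of state leaves less for the other terms, so nothing is read from the shares that follow. Fraction took 8.77%, 9.29% and 2.86%, beside a median of 5.49%, and replicate number took 5.85%, 1.25% and 3.11%, beside a median of 11.2%. Construct took 1.15%, 0.245% and 0.0188%. After state, fraction was the largest term for uc008thw.1 and uc009plj.1.

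The comparison of pulldown with input asked how much of each transcript was bound to biotinylated protein relative to the whole lysate. The 2 shorter transcripts were lower in the pulldown than in the input with both constructs, and uc008ezn.1 was not called in either direction by limma when both states were averaged. The average over states takes each state with the same weight, whereas a ratio within 1 state rests on that state alone. The estimate of the average would be uncorrelated with the KCl change only if both states had the same error. With Pan the SE of uc008thw.1 was 0.06 at rest and 0.14 after KCl, so the estimate is not free of the choice. The SE and p-value of the average also come in part from libraries in which the choice by small p favours little spread. They are not independent of the choice either. The average was added after the data had been seen.

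With Pan, the pulldown to input ratio of uc008thw.1 was 0.859, 0.783, 0.781 and 1.03 in the resting lysates of replicates 1 to 4 and 0.768, 0.942, 0.840 and 0.647 in the depolarized ones. With PSD95 it was 0.889, 0.856, 0.630 and 0.847 at rest and 0.750, 0.791, 0.810 and 0.620 after KCl. The ratio was below 1 in 15 of 16 lysates, the exception being the resting Pan lysate of replicate 4. Averaged over states, uc008thw.1 differed by −0.34 ± 0.08 (SE, log2) with Pan and by −0.31 ± 0.07 with PSD95, with limma adjusted p-values of 0.00224 and 0.00234. Both calls were lost without replicate 1, at −0.33 with an adjusted p of 0.17 and −0.30 with an adjusted p of 0.173. Both were also lost with DESeq2, at −0.19 and −0.18, and that with Pan without the replicate block, at −0.31 with an adjusted p of 0.0631. The states of the descriptions lost both as well, and edgeR that with Pan, at an adjusted p of 0.0886. The Pan call was kept in 8 of 13 alternatives and the PSD95 call in 10 of 13.

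uc009plj.1 had Pan ratios of 0.772, 0.827, 0.699 and 0.736 at rest and 0.855, 0.714, 0.699 and 1.00 after KCl. Its PSD95 ratios were 0.741, 0.702, 0.599 and 0.617 at rest and 0.883, 0.834, 0.856 and 0.821 after KCl. All 16 lysates had less of it in the pulldown, although the depolarized Pan lysate of replicate 4 was level to 3 digits. The average over states was −0.33 ± 0.07 with Pan and −0.38 ± 0.06 with PSD95, with limma adjusted p-values of 0.00148 and 5.83e-05. The PSD95 call was kept in 12 of 13 alternatives and lost with the states of the descriptions. The Pan call was kept in 11 of 13, and was lost with those states and without replicate 3, at −0.28 with an adjusted p of 0.0556.

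uc008ezn.1 lay on the other side. Its Pan ratios were 1.49, 1.08, 1.22 and 1.22 at rest and 1.28, 0.873, 1.41 and 1.05 after KCl, and its PSD95 ratios were 1.62, 1.44, 1.23 and 1.22 at rest and 1.17, 1.49, 0.921 and 0.824 after KCl. The ratio was above 1 in 8 of 8 resting lysates and below 1 in 3 of 8 depolarized ones. The average over states was 0.31 ± 0.12 with Pan and 0.25 ± 0.10 with PSD95, with limma adjusted p-values of 0.0723 and 0.0701, and unadjusted p of 0.0152 and 0.0161. DESeq2 called both, at 0.32 and 0.46 with adjusted p-values of 0.018 and 0.000194, and so did limma with RLE size factors. Without replicate 4 the PSD95 difference was called as well, at 0.43 with an adjusted p of 0.0245. Of 13 alternatives, 2 called the Pan difference and 4 the PSD95 difference. Without replicate 1 the PSD95 difference was 0.16, with a limma adjusted p of 0.526.

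In these 2 averaged comparisons limma called 2 of the 3 transcripts, beside 18.2% of all transcripts with Pan and 20.4% with PSD95. The median transcript stood at 0.09 with Pan and at 0.13 with PSD95 on the log2 scale, and with RLE size factors at 0.17 and 0.32. Relative to that median, uc008thw.1 was at −0.43 and −0.44 with TMM and at −0.41 and −0.49 with RLE. The corresponding values of uc009plj.1 were −0.42 and −0.51, and −0.38 and −0.55. For uc008ezn.1 they were 0.22 and 0.12, and 0.24 and 0.09. These distances moved by under 0.05 between the TMM and RLE fits. In DESeq2 the median transcript stood at 0.29 with either construct, and the distances were −0.48 and −0.47 for uc008thw.1, −0.57 and −0.53 for uc009plj.1, and 0.034 and 0.17 for uc008ezn.1. With Pan, the DESeq2 value of uc008ezn.1 was thus close to the median of all transcripts.

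**Figure D3:**
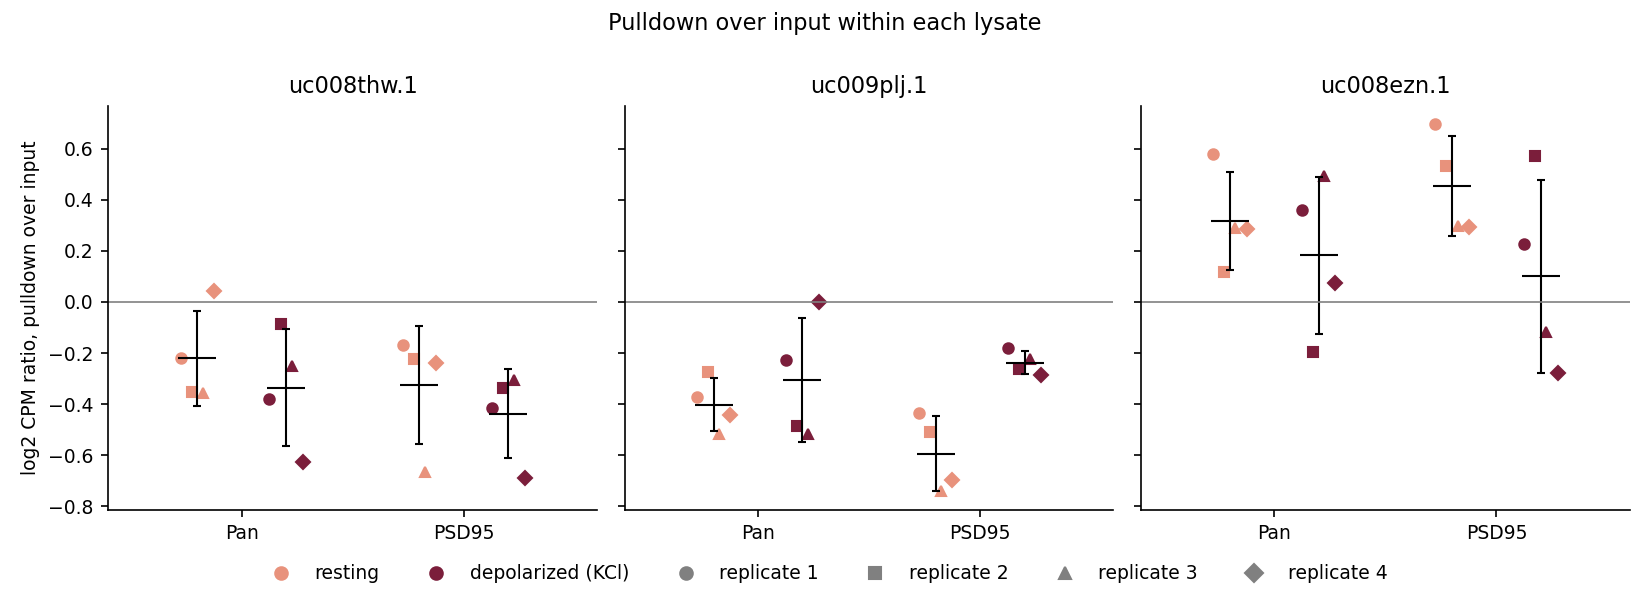
Pulldown over input within each lysate (vertical axis, log2 ratio of TMM-scaled CPM) for the 3 transcripts by construct, resting in salmon and depolarized in burgundy; points are lysates with the shape giving the replicate, and black bars are the mean and SD of 4. uc009plj.1 lies below 0 in all 16 lysates, uc008thw.1 in 15, and uc008ezn.1 in 3.

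Within single states the pattern differed by transcript. At rest, uc009plj.1 was lower in the pulldown by limma, at −0.40 ± 0.05 (SE, log2) with Pan and −0.56 ± 0.07 with PSD95 (adjusted p of 6.1e-06 and 1.45e-05), and uc008ezn.1 was higher, at 0.37 ± 0.09 and 0.45 ± 0.11 (adjusted p of 0.0122 and 0.0113). uc008thw.1 was at −0.17 ± 0.06 and −0.18 ± 0.08 (adjusted p of 0.0614 and 0.215). These calls were 2 of the 3 transcripts with each construct, beside 9.45% of all transcripts with Pan and 7.25% with PSD95. The resting libraries behind these ratios also entered the changes that chose the transcripts, so these p-values are not independent of the choice. The uc008ezn.1 calls were lost without replicate 1, at 0.21 with Pan (adjusted p of 0.556) and 0.31 with PSD95 (adjusted p of 0.438), and with Pan also without replicate 3, at 0.39 (adjusted p of 0.0838). Without the replicate block they were lost as well, at 0.39 with Pan (adjusted p of 0.0747) and 0.42 with PSD95 (adjusted p of 0.129). The value of uc008thw.1 with Pan passed the threshold without replicate 4, at −0.26 (adjusted p of 0.00424), and with the lysate, from which input and pulldown both came, as the block, at −0.22 (adjusted p of 0.00149).

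After KCl the called transcript was uc008thw.1, with 1 of the 3 called beside 8.04% of all transcripts with Pan and 12.8% with PSD95. It differed by −0.51 ± 0.14 (SE, log2) with Pan and −0.44 ± 0.11 with PSD95, with limma adjusted p-values of 0.0231 and 0.00958. The depolarized libraries behind these ratios also entered the changes that chose the transcripts, so these p-values are not independent of the choice. The plain means of the log2 ratio of uc008thw.1 over 4 lysates were −0.34 with Pan and −0.44 with PSD95, beside −0.22 and −0.33 at rest. Neither call was kept with edgeR or DESeq2, where the Pan values were −0.32 and −0.25. Of 13 alternatives, 3 kept the Pan call and 6 the PSD95 call. The Pan call was lost in each of the 4 fits without 1 replicate, at −0.53 to −0.29 with adjusted p-values of 0.07 to 0.378. The PSD95 call was lost without replicate 1, at −0.42 (adjusted p of 0.298), and without replicate 2, at −0.42 (adjusted p of 0.0846). Without the replicate block both were lost, at −0.49 with Pan (adjusted p of 0.204) and −0.45 with PSD95 (adjusted p of 0.0781). With the lysate as the block, that with Pan was lost, at −0.32 (adjusted p of 0.129), and that with PSD95 was called, at −0.44 (adjusted p of 0.00679). uc009plj.1 was at −0.26 ± 0.13 with Pan and −0.21 ± 0.10 with PSD95, with adjusted p-values of 0.242 and 0.195. uc008ezn.1 was at 0.25 ± 0.22 and 0.06 ± 0.16, with adjusted p-values of 0.548 and 0.88.

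The change of the pulldown to input ratio with KCl is built from the changes that chose the transcripts and is given as a description. For uc009plj.1 with PSD95 the log2 ratio was higher after KCl in 4 of 4 replicates, by 0.25 to 0.51, and the fitted difference was 0.35 ± 0.12 (SE). With Pan it was 0.14 ± 0.14. For uc008ezn.1 the differences were −0.13 ± 0.23 with Pan and −0.40 ± 0.20 with PSD95, with 6 of 8 replicates below 0. Those of uc008thw.1 were −0.33 ± 0.15 and −0.26 ± 0.14, with 5 of 8 below 0. The plain means of its 4 replicates were closer to no change, at −0.12 ± 0.41 (SD) with Pan and −0.11 ± 0.34 with PSD95. The single replicates of uc008thw.1 ran from −0.67 to 0.36, wider than the fitted differences.

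The comparison of PSD95 with Pan pulldowns addressed localization near PSD95, and the same comparison of inputs served as its background. The libraries compared also entered the KCl changes that chose the transcripts, so the p-values between constructs are not independent of the choice. The place of uc009plj.1 by p in the Pan pulldowns was 2, which favours high resting and low depolarized Pan values there. Both pulldown differences of uc009plj.1 below lie in that direction. In the resting pulldowns uc009plj.1 was lower with PSD95 in 4 of 4 replicates. It stood at 194, 167, 186 and 187 CPM with PSD95 and at 237, 235, 223 and 251 CPM with Pan. The share of all transcripts lower in every replicate was not computed, so nothing is read from that count. The fitted difference was −0.34 ± 0.06 (SE, log2), with a 95% interval of −0.48 to −0.20, an unadjusted p of 0.000172 and a limma adjusted p of 0.178. With no filter on low counts the adjusted p was 0.0417. In the resting inputs uc009plj.1 was lower with PSD95 too, in 4 of 4 replicates, at −0.18 ± 0.07 with an adjusted p of 0.702. The depolarized pulldowns stood the other way, at 0.23 ± 0.09 with an adjusted p of 0.407, and PSD95 was above Pan in 3 of 4 replicates. This value was 0.12 without replicate 1 and 0.12 without replicate 2.

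uc008thw.1 differed between PSD95 and Pan by −0.19 ± 0.10 (SE, log2) in the resting pulldowns and by −0.06 ± 0.14 in the depolarized ones, with 95% intervals of −0.41 to 0.02 and −0.37 to 0.25. In the inputs it was at −0.16 ± 0.05 at rest, lower with PSD95 in 4 of 4 replicates with a limma adjusted p of 0.6, and at −0.09 ± 0.07 after KCl. uc008ezn.1 differed by −0.01 ± 0.07 in the resting pulldowns and 0.06 ± 0.12 in the depolarized ones, with 95% intervals of −0.17 to 0.15 and −0.20 to 0.33. In the inputs it was at −0.15 ± 0.11 at rest and 0.24 ± 0.18 after KCl. The depolarized input ratios of uc008ezn.1 split by replicate, with −0.07 and −0.29 in replicates 1 and 2 and 0.72 and 0.56 in replicates 3 and 4.

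By limma, 0 of the 3 transcripts were called between PSD95 and Pan in any of the 4 comparisons. The share of all transcripts called was 0.00922% in the resting pulldowns, 0.129% in the depolarized pulldowns, 0.0359% in the resting inputs and 0.0359% in the depolarized inputs. At an unadjusted limma p under 0.05 the number of the 3 was 1, 1, 2 and 0 in the same order. Among all transcripts that number was 3159 and 3590 of 32553 in the pulldowns. In the inputs it was 1721 and 2780 of 27887. edgeR and DESeq2 also called 0 of the 3 in each.

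**Figure D4:**
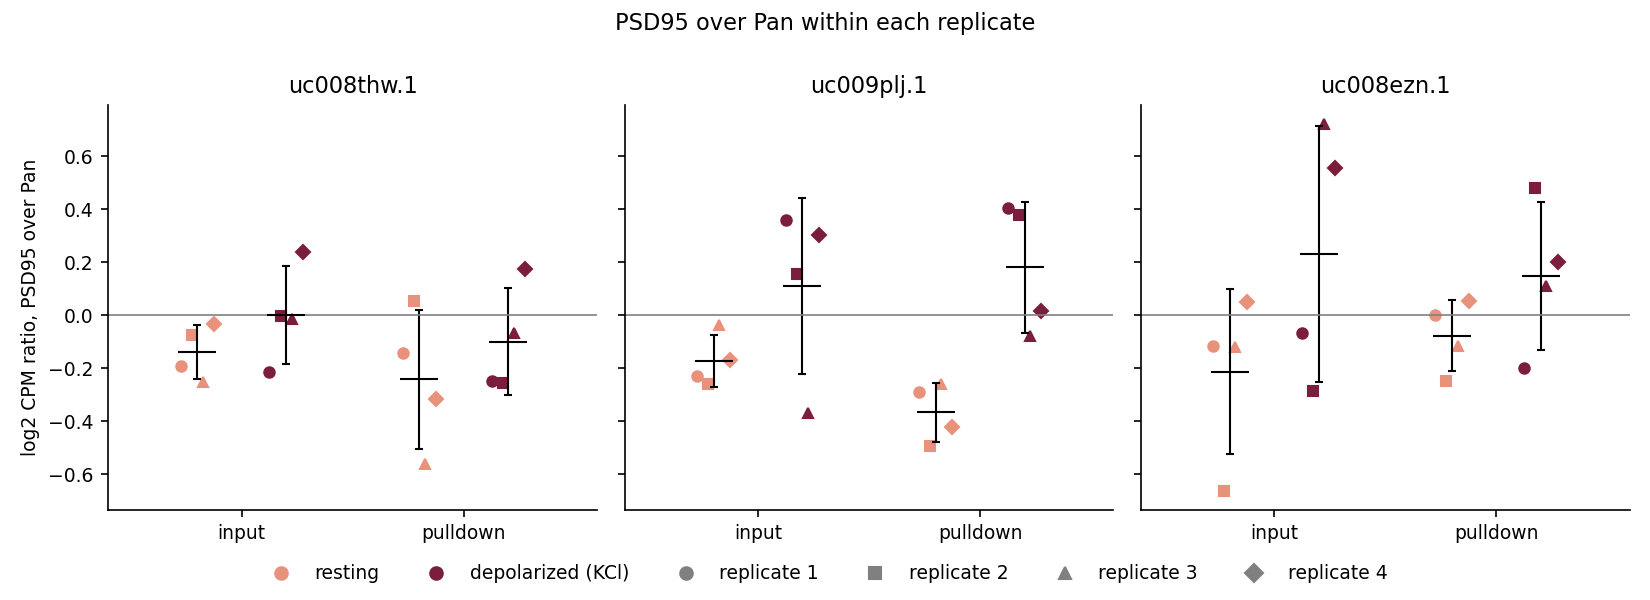
PSD95 over Pan within each replicate (vertical axis, log2 ratio of TMM-scaled CPM) for the 3 transcripts in inputs and pulldowns, resting in salmon and depolarized in burgundy; points are replicates by shape and black bars are the mean and SD of 4. The 4 resting pulldown ratios of uc009plj.1 lie between −0.50 and −0.26, while its depolarized ones lie between −0.08 and 0.40.

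Whether the fall after KCl differed between constructs was examined as an interaction. It is built from KCl changes, of which those in the inputs chose uc008thw.1 and uc009plj.1 and those in the pulldowns chose uc008ezn.1. Adjusted p-values are therefore given for the other fraction of each, and even these are not fully independent of the choice, since uc009plj.1 also stood at place 2 by p in the Pan pulldowns. In the pulldowns the KCl change of uc009plj.1 with PSD95 minus that with Pan was 0.57 ± 0.11 (SE, log2), with a 95% interval of 0.32 to 0.81, an unadjusted p of 0.000298 and a limma adjusted p of 0.116. DESeq2 gave 0.51 with an adjusted p of 0.0209, and limma with no filter on low counts 0.58 with an adjusted p of 0.046. In the inputs the difference of uc009plj.1 was 0.37 ± 0.13, and 0.19 without replicate 1. For uc008thw.1 the differences were 0.13 ± 0.17 in the pulldowns, with a limma adjusted p of 0.812, and 0.07 ± 0.09 in the inputs. For uc008ezn.1 they were 0.07 ± 0.14 in the pulldowns and 0.39 ± 0.22 in the inputs, where the limma adjusted p was 0.625. By limma 0 of the 3 were called in either fraction, beside 0.0215% of all transcripts in the pulldowns and 0.0502% in the inputs. In the pulldowns 3849 of 32553 transcripts had an unadjusted limma p under 0.05, uc009plj.1 among them. The median transcript was at 0.12 in the pulldowns and 0.05 in the inputs, in the direction of uc009plj.1.

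The levels of the 3 transcripts moved together over the 32 libraries. Pearson's r was taken on log2 CPM after the mean of each replicate number was subtracted. It was 0.888 between uc008thw.1 and uc009plj.1, 0.818 between uc008thw.1 and uc008ezn.1 and 0.812 between uc009plj.1 and uc008ezn.1. The libraries share state, fraction and depth, and the choice of the transcripts sets most of this. After the mean of each of the 8 groups and then that of each replicate number was subtracted, r was −0.37, 0.15 and −0.04 in the same order. Little was thus left in common between libraries of a group once differences between replicate numbers were removed.

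The transcript most like each of the 3 was taken as the one with the highest Pearson's r over the 32 libraries after the mean of each replicate number was subtracted, among 17748 transcripts. For uc008thw.1 it was uc008xgy.2 (1685 nt), with r of 0.952. For uc009plj.1 it was uc007olc.2 (7097 nt), with r of 0.925, and for uc008ezn.1 it was uc009hxw.1 (7355 nt), with r of 0.941. These are descriptions over libraries that share state, and most of the likeness is the fall with KCl. The mean of uc008xgy.2 went from 55.0 CPM ± 11.7 (SD, n = 4) to 16.4 ± 1.12 in the Pan inputs, a fitted change of −1.84 ± 0.17 (SE, log2) beside −0.93 for uc008thw.1. That of uc007olc.2 went from 47.6 CPM ± 2.48 to 22.3 ± 4.14 in the PSD95 pulldowns and from 52.6 ± 11.9 to 19.7 ± 4.20 in the Pan pulldowns, fitted changes of −0.93 ± 0.17 and −1.55 ± 0.18. That of uc009hxw.1 was higher in the resting pulldowns, at 153 CPM ± 16.9 with Pan, than in the resting inputs, at 121 ± 25.3, and fell to 62.9 ± 18.3 in the depolarized Pan pulldowns.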

How the data were processed

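Groups came from sample titles and the treatment field. The authors made the files with salmon on mm10 UCSC knownGene models. Its version was not given in the sources used here. Deposited expected counts divide reads between transcripts they fit equally, and the deposited TPM values were scaled by the authors' tool to a fixed library sum. Expected counts were rounded for testing. The test was limma 3.58.1 with voom and quality weights, under R 4.3.3, after the TMM scaling and low-count filter of edgeR 4.0.16. The model held group and replicate number, p-values were adjusted by Benjamini-Hochberg over all transcripts of a fit at 0.05, and 12 comparisons were tested. Pulldowns (16), inputs (16) and all 32 libraries had separate fits.

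The study processed libraries of the same biological replicate together and modelled replicate as a batch, so the number served as a block here. The mean residual correlation was 0.0931 (inputs) and 0.0832 (pulldowns) within a number, and −0.0291 and −0.0252 between numbers. The transcripts, lists and comparisons were chosen with earlier results of these data known. The named transcripts were the members and the single most alike transcript of each. DESeq2 1.42.0, edgeR's own test and the other alternatives are given in the closing section. Marker and activity gene lists were not used here, since 0 identifiers matched a gene name.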

Additional observations from a re-analysis of the deposited data

How the results depend on the processing

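All changes with KCl kept their direction in 168 alternative values, and 153 stayed within the SD between replicates. With CPM of all reads, the changes of uc008thw.1, uc009plj.1 and uc008ezn.1 were −1.89, −2.30 and −2.47 (log2) in the Pan inputs and −1.35, −1.61 and −1.62 in the PSD95 inputs, and those of uc008thw.1 and uc008ezn.1 were −0.62 and −1.14 in the PSD95 pulldowns. With the states of the descriptions, the Pan input changes were −0.62, −1.09 and −1.13, those of uc008thw.1 and uc008ezn.1 in the PSD95 inputs −0.64 and −0.89, and those of uc009plj.1 and uc008ezn.1 in the Pan pulldowns −1.07 and −1.41.

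Of 450 alternative values of tested differences, 375 kept their sign and call, 41 lost the call, 14 gained it and 20 changed sign without a call. The causes were not tested. For pulldown against input, edgeR gave no call for uc009plj.1 (−0.40) and uc008ezn.1 (0.31) with resting Pan, uc008ezn.1 (0.45) with resting PSD95, or uc008thw.1 with depolarized Pan (−0.32), depolarized PSD95 (−0.44) and Pan averaged over states (−0.27). DESeq2 gave none for uc008ezn.1 with resting Pan (0.39) or uc008thw.1 with depolarized Pan (−0.25), depolarized PSD95 (−0.23), Pan averaged (−0.19) and PSD95 averaged (−0.18), but called uc008ezn.1 averaged with Pan (0.32) and PSD95 (0.46). RLE factors called the same pair (0.41 and 0.42) and lost uc008thw.1 with depolarized PSD95 (−0.27). Without quality weights, uc008thw.1 with resting Pan (−0.20) and uc008ezn.1 averaged with PSD95 (0.31) were called. With no filter, uc008thw.1 with resting Pan (−0.21) was called, and so it was with lysate as the block (−0.22), which lost uc008thw.1 with depolarized Pan (−0.32). Without the dominated libraries that value (−0.48) was lost too. With no replicate block, the calls of uc008ezn.1 at rest with Pan (0.39) and PSD95 (0.42) and of uc008thw.1 with depolarized Pan (−0.49), depolarized PSD95 (−0.45) and Pan averaged (−0.31) were lost; leaving out the block changed no other call of the 3 transcripts. With the states of the descriptions, every call was lost: uc009plj.1 and uc008ezn.1 at rest with Pan (−0.40 and 0.39) and PSD95 (−0.53 and 0.43), uc008thw.1 after KCl with Pan (−0.73) and PSD95 (−0.38), and, averaged over states, uc008thw.1 (−0.42 with Pan, −0.32 with PSD95) and uc009plj.1 (−0.44 with Pan, −0.37 with PSD95).

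Between constructs, no filter called uc009plj.1 in the resting pulldowns (−0.36), uc008thw.1 in the resting inputs (−0.18) and the construct difference in the KCl change of uc009plj.1 in the pulldowns (0.58), which DESeq2 also called (0.51). The PSD95 to Pan difference of uc008ezn.1 changed sign in the resting pulldowns with DESeq2 (0.015), RLE factors (0.051) and without the dominated libraries (0.029), and without those libraries also in the depolarized pulldowns (−0.0087) and inputs (−0.00036), as did its construct difference in the KCl change of the pulldowns (−0.038). That of uc008thw.1 in the depolarized pulldowns changed sign with no filter (0.055), without the replicate block (0.00027) and with the states of the descriptions (0.014), which also turned uc009plj.1 in the depolarized inputs (−0.053) and the construct difference in the KCl change of uc008thw.1 in the inputs (−0.014).

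Leaving out 1 replicate at a time, pulldown against input ranged from −0.26 to −0.14 (uc008thw.1) and 0.21 to 0.42 (uc008ezn.1) with resting Pan, 0.31 to 0.59 (uc008ezn.1) with resting PSD95, and for uc008thw.1 −0.53 to −0.29 with depolarized Pan and −0.45 to −0.39 with depolarized PSD95. Averaged over states it was −0.34 to −0.28 (uc008thw.1) and −0.38 to −0.28 (uc009plj.1) with Pan, and −0.31 to −0.29 (uc008thw.1) and 0.16 to 0.43 (uc008ezn.1) with PSD95. PSD95 against Pan was −0.058 to 0.035 (uc008ezn.1) in the resting pulldowns, −0.26 to 0.058 (uc008thw.1) and −0.015 to 0.27 (uc008ezn.1) in the depolarized pulldowns and −0.13 to 0.057 (uc008thw.1) in the depolarized inputs. For uc009plj.1 it was 0.12 to 0.33 in the depolarized pulldowns, and the construct difference in its KCl change was 0.19 to 0.46 in the inputs. The construct difference in the KCl change of the pulldowns was −0.13 to 0.30 (uc008thw.1) and −0.049 to 0.31 (uc008ezn.1).

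Calls over all transcripts depended on the setting. For pulldown against input, the counts were 3279 (474 to 3841 in the alternatives) with resting Pan, 2791 (258 to 3983) with depolarized Pan, 2515 (287 to 3268) with resting PSD95, 4433 (903 to 4425) with depolarized PSD95, 6320 (1530 to 7831) with Pan averaged and 7065 (2209 to 7016) with PSD95 averaged, the lowest each time without replicate 1. Between PSD95 and Pan they were 3 (0 to 516) and 42 (0 to 626) in the resting and depolarized pulldowns, 10 (0 to 329) and 10 (0 to 528) in the inputs, and for the construct difference in the KCl change 7 (0 to 765) in the pulldowns and 14 (0 to 563) in the inputs, the highest each time with DESeq2. The lowest count behind a value was 28 reads, of uc008ezn.1 in 1 library, and 1 transcript took over 50% of the reads in 6 libraries. The smallest difference that these depths could show was not computed.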
